A study of Mus musculus with 44 samples.

Results

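The genes described here encode the machinery of oxidative phosphorylation in mouse kidney, the subunits of respiratory complexes I to V together with assembly factors that carry the same name stems. They were taken as the protein-coding genes whose symbol begins with mt-, Nduf, Sdh, Uqcr, Atp5 or Cox followed by a digit. The rule found 120 of the 30284 genes into which the transcripts of the abundance table were summed: 13 encoded by the mitochondrial genome and 107 by the nuclear genome. Complex I had 51 members, complex II 8, complex III 9, complex IV 32 and complex V 20, with assembly factors counted under the complex they serve. The 107 nuclear genes lay on 19 chromosomes, with no more than 10 on any one of them. Another 12 loci with a matching symbol were annotated as processed pseudogenes and were left out; reads from near-identical pseudogenes and paralogs cannot be told apart with certainty in such tables. Of the 120 members, 117 had a mean of at least 1 TPM and were tested, among 12874 genes in all.

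Oxidative phosphorylation turns the electrons of NADH and succinate into a proton gradient across the inner mitochondrial membrane and uses the gradient to make ATP. Complexes I (NADH dehydrogenase) and II (succinate dehydrogenase) feed electrons to ubiquinone, complex III passes them to cytochrome c, complex IV reduces oxygen, and complex V is the ATP synthase. Complex II is encoded entirely in the nucleus, whereas each of the others joins mitochondria-encoded core subunits to imported nuclear ones. The kidney is rich in mitochondria because tubular salt reabsorption consumes much ATP.

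Polyadenylated RNA of kidneys from mice of the 129SV strain, 8 to 12 weeks old and on night-restricted feeding, was measured at zeitgeber times (ZT) 0, 4, 8, 12, 16 and 20 h. The mice were wild type (WT) or knockout for Bmal (KO). Bmal (gene symbol Arntl) is one of the activators that drive circadian transcription. At every time each genotype was represented by a library A and a library B, which makes 12 groups of 2. The labels do not say whether these came from separate animals, and p-values therefore measure only the spread between these samples, which may be technical. The values are TPM, a unit that corrects for transcript length and sums to the same total in every library, so depth is unknown and a rise of abundant transcripts lowers the value of every other gene.

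Checks other than the level of the targeted gene set 3 libraries apart. Arntl transcripts were still listed at 4.19 to 6.28 TPM in all 12 KO libraries, against 0.295 to 12.9 TPM across the WT day. In the library labelled KO ZT4 A the clock genes Cry1 (1.03 TPM) and Nr1d1 (23.8 TPM) lay within the WT ranges and outside those of the other 11 KO libraries (11.5 to 17.8 TPM and 1.23 to 3.46 TPM). KO ZT8 A had the lowest mitochondrial share of all libraries, described below. KO ZT12 A had the Y-linked gene Ddx3y at 0.099 TPM, against 11.7 to 17.5 TPM in every other library. Beyond these checks, KO ZT16 A stood apart for some members in both directions, with Atp5e at 315 TPM and Cox6b2 at 26.0 TPM. The other KO libraries lay at 542 to 743 TPM and 10.9 to 16.1 TPM. KO ZT16 A stayed in the fits that left out several libraries. Proximal tubule markers summed to 2321 to 2800 TPM in WT and 2030 to 2850 TPM in KO, so the tissue carried its main defining markers.

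Mitochondria-encoded transcripts took a far larger share of every library than the nuclear members. In WT the mitochondria-encoded share of TPM was 40.5% ± 1.31 (SD, n = 12), with a range of 38.0% to 42.5%. In KO it was 37.6% ± 1.97 (SD, n = 12), with a range of 32.3% to 40.3%. The share of the 107 nuclear members was 3.27% ± 0.184 (SD, n = 12) for WT libraries and 3.74% ± 0.247 (SD, n = 12) for KO libraries. The KO range of the mitochondrial share overlapped that of WT through KO ZT4 A at 40.3%, KO ZT20 A at 39.4%, KO ZT12 A and KO ZT16 A at 38.7% each and KO ZT12 B at 38.3%. KO ZT8 A lay lowest in mitochondrial share (32.3%), mostly through the gene mt-Atp8 described below, and highest in nuclear share (4.25%). Without this library the KO mean of the mitochondrial share was 38.1% ± 1.10 (SD, n = 11). The ratio of mitochondrial to nuclear members within a library, which no scaling can change, was 12.4 ± 1.05 (SD, n = 12) for WT and 10.1 ± 1.05 (SD, n = 12) for KO, with ranges of 10.9 to 14.1 and 7.60 to 11.9.

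**Figure D1:**
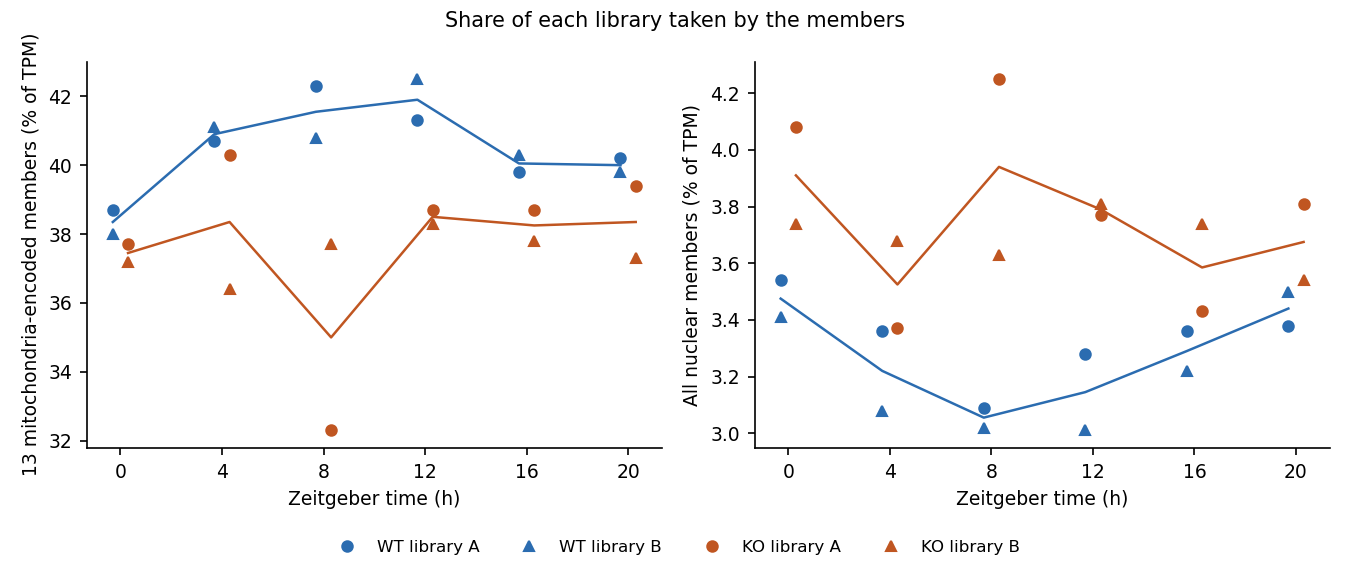
Percent of TPM from the 13 mitochondria-encoded members (left) and the 107 nuclear members (right) in each library against zeitgeber time in hours; lines join the means of the 2 libraries of a group. WT lay between 38.0% and 42.5% on the left and KO between 32.3% and 40.3%, and on the right most KO libraries lie above the WT libraries of the same time (3.37% to 4.25% against 3.01% to 3.54%).

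Both shares varied with time of day in WT, with no test of the shares themselves. The WT mitochondrial share was lowest at ZT0 (38.4% ± 0.518, SD, n = 2) and highest at ZT12 (41.9% ± 0.813, SD, n = 2). The nuclear share was highest at ZT0 (3.48% ± 0.0889, SD, n = 2) and lowest at ZT8 (3.06% ± 0.0508, SD, n = 2). In KO the mitochondrial means lay between 35.0% at ZT8 and 38.5% at ZT12, and the ZT8 mean rested on libraries at 32.3% and 37.7%.

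Of the 13 mitochondria-encoded genes, mt-Atp8, a small membrane subunit of complex V, alone accounted for 18.4% ± 0.717 (SD, n = 12) of the TPM of WT libraries and for 17.5% ± 1.45 (SD, n = 12) of that of KO libraries. It is also the shortest member, at 204 bases, and its last 43 bases are shared with mt-Atp6, the proton channel subunit of the same complex. The reading frame of mt-Nd4 likewise begins within mt-Nd4l, over 7 bases, and mt-Nd5 and mt-Nd6 overlap by 14 bases on opposite strands. These stretches of the 16299-base mitochondrial genome (GRCm38.p6 reference, RefSeq) are shown because reads within them belong to both genes; the bases in capitals are the shared ones.
mt-Atp8 end and mt-Atp6 start (chrM:7912-7984, plus strand): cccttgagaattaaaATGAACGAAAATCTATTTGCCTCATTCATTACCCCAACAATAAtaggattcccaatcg
mt-Nd4l end and mt-Nd4 start (chrM:10152-10188, plus strand): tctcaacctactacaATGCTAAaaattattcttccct
How reads were divided over these overlaps, and whether strand was used, is not given in the sources used here. Levels of mt-Atp8, mt-Atp6, mt-Nd4l and mt-Nd6 are therefore uncertain relative to their neighbours. The low mitochondrial share of KO ZT8 A was mostly that of mt-Atp8, at 13.3% against 16.5% to 18.7% in the other KO libraries. The share without mt-Atp8 was 19.0% in KO ZT8 A against 19.4% to 21.7% in the other KO libraries. Without mt-Atp8 the ratio of mitochondrial to nuclear members was 6.77 ± 0.58 (SD, n = 12) for WT and 5.42 ± 0.515 (SD, n = 12) for KO, so the lower KO value was present without it.

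The genotype comparison asked which members differed between KO and WT over all 6 times. Among the 13 mitochondria-encoded genes 10 were lower in KO and none was higher on TPM as deposited. Across all genes tested 60.9% were called, 50.9% higher and 10.0% lower, with a median log2 difference of 0.15. The median of the mitochondria-encoded genes was -0.16, which is -0.31 relative to the median of all genes. Each difference is KO minus WT on the log2(TPM + 0.1) scale from limma with time as a factor, called at a Benjamini-Hochberg adjusted p under 0.05 over all genes.

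The 7 complex I genes, whose products form the proton-pumping membrane arm, were lower in KO throughout and at each of the 6 times. For mt-Nd5, WT libraries lay at 4432, 5412 and 6109 TPM (lowest, median and highest) and KO libraries at 3297, 4195 and 5328 TPM. The ranges overlapped, and the difference was -0.35 (SE 0.057, adjusted p 4.46e-05). For mt-Nd2, WT lay at 10276, 11116 and 11973 TPM and KO at 8121, 8940 and 10998 TPM, a difference of -0.28 (SE 0.035, adjusted p 2.94e-06); the overlap was KO ZT4 A alone, and the other 11 KO libraries lay below every WT library. Next to these stood mt-Nd3 (-0.32, SE 0.052), mt-Nd6 (-0.32, SE 0.051) and mt-Nd1 (-0.24, SE 0.039), while mt-Nd4l (-0.16, SE 0.054, adjusted p 0.0153) and mt-Nd4 (-0.13, SE 0.031, adjusted p 0.00146) differed least. The mt-Nd6 gene, the only mitochondria-encoded member on the opposite strand, had the same difference as mt-Nd3. Its level is uncertain, because the use of strand is not given in the sources used here.

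The other 6 mitochondria-encoded genes lay between -0.16 and 0.06 on the same scale. Among the catalytic subunits of complex IV, mt-Co2 lay at 30334, 31333 and 34400 TPM in WT and at 26869, 28093 and 30351 TPM in KO, and only KO ZT4 A reached the WT range (-0.16, SE 0.029, adjusted p 9.87e-05). The largest subunit gene, mt-Co1, had a difference of 0.06 (SE 0.035, adjusted p 0.126) with medians of 23974 TPM in WT and 24548 TPM in KO, and mt-Co3 had -0.05 (SE 0.025, adjusted p 0.105). Cytochrome b of complex III, mt-Cytb, was lower, with a difference of -0.09 (SE 0.031, adjusted p 0.0121). In complex V, mt-Atp6 was lower, with -0.07 (SE 0.029, adjusted p 0.0326) and mt-Atp8 had -0.08 (SE 0.044, adjusted p 0.137). When single libraries were left out in turn, mt-Atp6 passed in 16 of 24 fits (adjusted p up to 0.0688). The mt-Co1 difference passed the threshold as higher without KO ZT8 A (0.08, adjusted p 0.0227) and as lower under median-of-ratios scaling (-0.09, adjusted p 0.0303), so its direction depended on the scale.

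The unequal size of these differences can be read within a library, free of any scaling. The summed TPM of the 7 mitochondria-encoded complex I genes over the 3 of complex IV was 1.06 ± 0.0274 (SD, n = 12) in WT, with a range of 1.01 to 1.10. In KO it was 0.931 ± 0.0621 (SD, n = 12). All KO libraries but one lay between 0.863 and 0.971, below every WT library; the exception was the library labelled KO ZT4 A, at 1.10, level with the highest WT library. Without it the KO ratio was 0.915 ± 0.0341 (SD, n = 11). The same ratio over nuclear subunits was 1.01 ± 0.0173 (SD, n = 12) in WT and 0.999 ± 0.0351 (SD, n = 12) in KO, with ranges that overlapped widely. These ratios were chosen after the values of the genes were seen and carry no test.

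**Figure D2:**
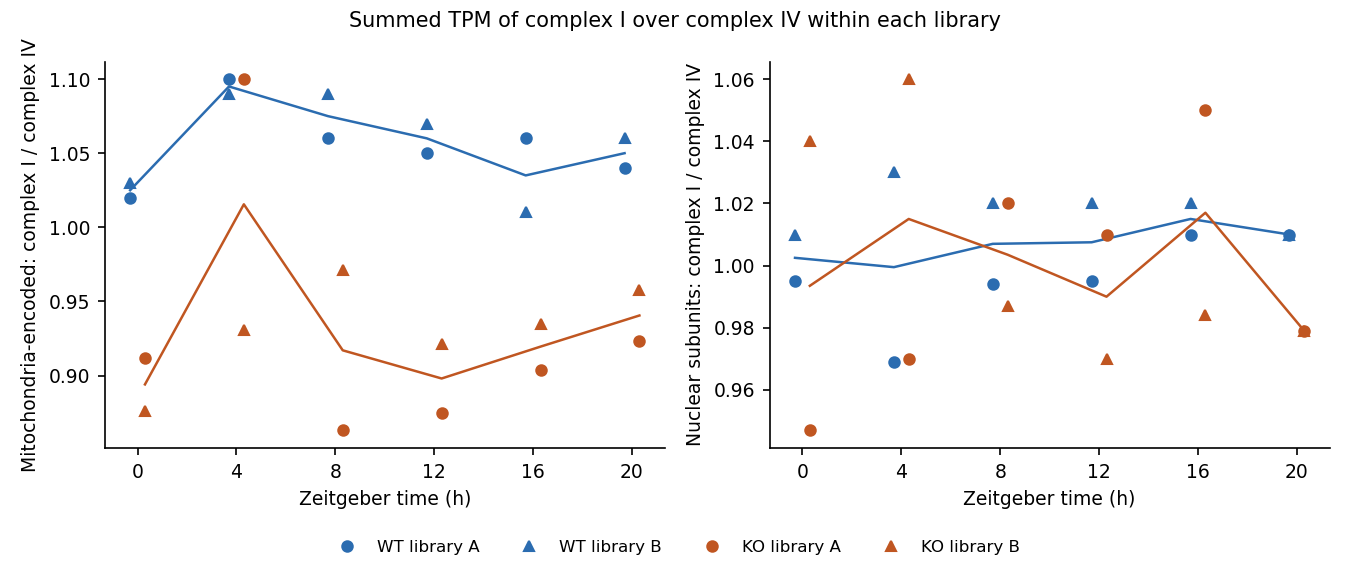
Summed TPM of complex I over complex IV within each library against zeitgeber time in hours, for mitochondria-encoded genes (left, 7 over 3 genes) and nuclear subunits (right, 36 over 19 genes); lines join group means. On the left the KO libraries lie at 0.863 to 0.971 and the WT libraries at 1.01 to 1.10, with KO ZT4 A at 1.10; on the right the genotypes overlap.

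Nuclear members were mostly higher on TPM as deposited, as most other genes were, but their median was -0.0005 when median-of-ratios scaling was used and KO ZT4 A and KO ZT8 A were left out. Of the 104 tested, 78 were higher in KO, 1 was lower and 25 did not pass, against the 50.9% higher and 10.0% lower among all genes. Their median was 0.19, 0.039 above the median of all genes. Median-of-ratios scaling centres the typical gene near no difference and shifted the median of all genes by -0.15. On that scale 17 nuclear members were higher and 8 lower (21.5% and 22.6% of all genes), and all 17 were among the 78. Scaling each library to its nuclear genes gave 62 higher and 4 lower, with 48.6% of all genes called in either direction. Apart from mt-Co1 the mitochondria-encoded genes had the same sign on all scales: 12 of 13 were lower with the nuclear scaling (median -0.22) and 13 of 13 with median-of-ratios (median -0.31). Relative to the median of all genes, the mitochondria-encoded genes lay at -0.31 both as deposited and with median-of-ratios scaling, and the nuclear members at 0.039 and 0.037. A scaling moves all genes of a library alike, so these offsets could hardly change with it and their agreement is no further support. The nuclear value rested on KO ZT8 A: on TPM as deposited it was 0.0056 without that library and 0.0021 without KO ZT4 A as well, where the mitochondria-encoded genes lay at -0.27 and -0.29.

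**Figure D3:**
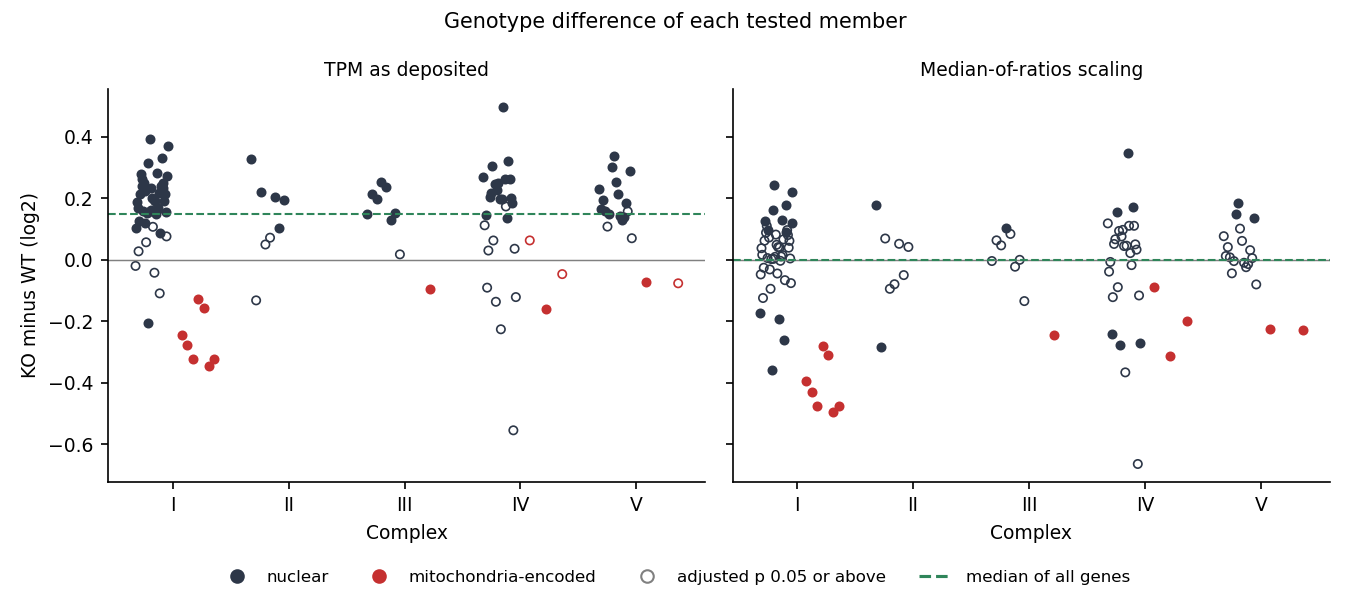
KO minus WT difference (log2) of each tested member by complex, on TPM as deposited (left) and after median-of-ratios scaling (right); filled points passed an adjusted p of 0.05, and the dashed line is the median of all 12874 genes (0.15 left, -0.0017 right). Nuclear members (dark) scatter around the dashed line in both panels, and mitochondria-encoded members (red) lie below it.

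Without KO ZT4 A, KO ZT8 A and KO ZT12 A together, 72 nuclear members were higher and 1 lower (median 0.17), and of the mitochondria-encoded genes 11 were lower and mt-Co1 higher. The median of the mitochondria-encoded genes was then -0.12, and -0.11 without KO ZT8 A alone. At single times the mitochondria-encoded median ran from -0.07 at ZT0 to -0.29 at ZT8, and the nuclear median from 0.09 at ZT20 to 0.35 at ZT8, the time of KO ZT8 A. The median of all genes was 0.09 and 0.10 at these last 2 times. At ZT16, the time of KO ZT16 A, the nuclear median of 0.11 lay below the 0.16 of all genes. Markers of other kidney cells also differed between the genotypes on the same scale. All 4 distal convoluted tubule markers, 5 of 5 principal cell, 5 of 5 intercalated cell and 4 of 4 podocyte markers were higher in KO, with summed medians of 413 against 286, 326 against 231, 95.7 against 69.8 and 90.0 against 65.6 TPM. Of the 8 proximal tubule markers 2 were higher and 3 lower, with summed medians of 2436 TPM in KO and 2632 TPM in WT. Of 5 thick ascending limb markers 4 were higher and 1 lower, with summed medians of 1629 TPM in KO and 1679 TPM in WT. Endothelium had 2 of 5 markers higher, leukocytes had 3 of 5 lower, and 0 of 5 stroma markers passed. Among all genes 50.9% were higher and 10.0% lower on this scale. In bulk RNA fewer cells of a type and less RNA per cell cannot be told apart, and the part of these markers in the members' differences was not tested.

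Complex I is the largest complex, and 30 of its 36 nuclear subunits were higher in KO and none lower (83.3% higher, median 0.19). Under median-of-ratios scaling 7 were higher and 3 lower (19.4% and 8.33%). Over all genes 50.9% were higher and 10.0% lower on TPM as deposited, and 21.5% and 22.6% under median-of-ratios scaling. Among the 7 core subunits of complex I, which carry the flavin and iron-sulfur clusters, 6 were higher on TPM as deposited (85.7%). Among its 29 accessory subunits 24 were higher (82.8%). The accessory subunit Ndufv3, part of the NADH-binding tip, was the member whose genotypes separated completely. Its libraries lay at 221, 254 and 279 TPM in WT and at 286, 328 and 403 TPM in KO, a difference of 0.37 (SE 0.043, adjusted p 1.32e-06) that held at each of the 6 times and under median-of-ratios scaling (0.22, adjusted p 0.00157). All KO libraries above all WT libraries was seen in 1.42% of all genes, and all KO below in 0.249%; no other member did either with every library included. KO ZT4 A alone closed the gap for several members. Without it 15 of the 104 nuclear members had every KO library above every WT library (14.4%, against 8.34% of all genes), and 3 mitochondria-encoded genes, mt-Nd1, mt-Nd2 and mt-Co2, had every KO library below (against 1.77% of all genes). The core subunit Ndufs3 lay at 179, 205 and 221 TPM in WT and 211, 257 and 287 TPM in KO (0.33, SE 0.042, adjusted p 3.04e-06), and its KO libraries other than KO ZT4 A lay at 239 TPM or more.

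The most abundant nuclear subunits of complex I showed smaller or less certain differences. Ndufb8 lay at 702, 780 and 809 TPM in WT and 750, 931 and 1146 TPM in KO (0.28, SE 0.052, adjusted p 0.000139), with ranges that overlapped through KO ZT4 A alone. Ndufa3 had a difference of 0.21 (SE 0.045, adjusted p 0.000481), and Ndufa10 one of 0.10 (SE 0.028, adjusted p 0.00351). Ndufa10 had -0.05 (adjusted p 0.244) under median-of-ratios scaling, on the other side of 0. Levels within the complex differed far more than between genotypes, since its nuclear subunits ranged from 24 to 853 TPM (median 208) and its mitochondria-encoded subunits from 4761 to 15632 TPM.

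The 21 assembly factors, which build the complexes and are not part of them, were expressed at a median of 23.0 TPM. Of these 11 were higher in KO, 1 was lower and 9 did not pass, with a median difference of 0.14. The 52.4% that were higher stood close to the 50.9% of all genes, and the median to the 0.15 of all genes. Ndufaf7, a methyltransferase that modifies a core subunit during complex I assembly, lay at 10.7, 11.6 and 12.3 TPM in WT and 11.4, 15.5 and 16.7 TPM in KO (0.39, SE 0.047, adjusted p 1.88e-06). The lowest KO value was that of KO ZT4 A, and the other KO libraries lay at 14.5 TPM or more. Ndufaf4, another complex I assembly factor, was the one nuclear member lower in KO on TPM as deposited, at 22.6, 29.3 and 37.9 TPM in WT and 19.0, 26.6 and 30.5 TPM in KO (-0.21, SE 0.061, adjusted p 0.00653). Its KO mean was higher at 1 of the 6 times only, and it was lower under median-of-ratios scaling too (-0.36, adjusted p 0.000107). Cox19, a factor of copper delivery to complex IV, was higher by 0.31 (SE 0.048, adjusted p 2.96e-05).

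All 4 subunits of complex II were higher in KO (median 0.20), against 50.9% of all genes. Under median-of-ratios scaling 1 of the 4 was higher (25.0%, against 21.5% of all genes). That subunit was Sdha, the flavoprotein that oxidises succinate, at 594, 643 and 660 TPM in WT and 645, 800 and 889 TPM in KO (0.33, SE 0.042, adjusted p 3.19e-06). Only KO ZT4 A reached the WT range, and the other KO libraries lay at 764 TPM or more. The iron-sulfur subunit Sdhb (0.20, SE 0.053, adjusted p 0.00275) and the membrane anchor Sdhd (0.19, SE 0.034, adjusted p 9.64e-05) differed by less, and the anchor Sdhc least (0.10, SE 0.034, adjusted p 0.0154; -0.05 under median-of-ratios scaling, adjusted p 0.299). Sdhb lay at 211 TPM in KO ZT16 A and at 249 to 335 TPM in the other KO libraries. Sdhaf2, which attaches the flavin to Sdha, lay at a median of 8.42 TPM in WT and 9.98 TPM in KO (0.22, SE 0.040, adjusted p 0.00012).

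In complex III 7 of 8 nuclear subunits were higher (87.5%, against 50.9% of all genes), with a median of 0.18. Under median-of-ratios scaling 1 was higher (12.5%, against 21.5% of all genes). This was the large matrix-facing subunit Uqcrc1, at 230, 248 and 268 TPM in WT and 244, 303 and 333 TPM in KO (0.25, SE 0.038, adjusted p 1.55e-05), where only KO ZT4 A lay below 278 TPM. Uqcr11 (0.22, SE 0.050, adjusted p 0.00103) and Uqcrb (0.20, SE 0.045, adjusted p 0.000915), small accessory subunits, were higher too. The 3 most abundant subunits differed less: Uqcr10 by 0.15 (SE 0.043, adjusted p 0.00619), Uqcrh, the hinge protein that contacts cytochrome c1, by 0.15 (SE 0.060, adjusted p 0.0333), and Uqcrq by 0.02 (SE 0.053, adjusted p 0.79). Uqcrh lay at 436 TPM in KO ZT16 A and at 529 to 728 TPM in the other KO libraries. With single libraries left out in turn Uqcrh passed in 15 of 24 fits, and both it and Uqcr10 were at or just below 0 under median-of-ratios scaling (-0.0004 and -0.0043).

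In complex IV 11 of 17 tested nuclear subunits were higher and none lower (median 0.20). The 64.7% higher compares with 50.9% of all genes. Under median-of-ratios scaling 1 was higher and 2 lower (5.88% and 11.8%, against 21.5% and 22.6% of all genes). Cox7a2l was counted apart from these 17. Cox5b, a zinc-binding subunit, lay at 985, 1116 and 1254 TPM in WT and 1112, 1337 and 1581 TPM in KO (0.25, SE 0.051, adjusted p 0.000384). Cox6c was higher by 0.26 (SE 0.044, adjusted p 5.65e-05). Cox7a2l, which helps to join complexes III and IV into supercomplexes, lay at 102, 107 and 117 TPM in WT and 102, 138 and 153 TPM in KO (0.32, SE 0.046, adjusted p 1.18e-05; 0.17 under median-of-ratios scaling, adjusted p 0.00224).

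In complex V 14 of 16 tested nuclear subunits were higher and none lower (median 0.17). The 87.5% higher compares with 50.9% of all genes. Under median-of-ratios scaling 3 were higher (18.8%, against 21.5% of all genes). The catalytic subunit Atp5b, the most abundant nuclear member, lay at 2297, 2463 and 2524 TPM in WT and 2470, 2679 and 3145 TPM in KO (0.16, SE 0.035, adjusted p 0.000574). Its partner Atp5a1 was higher by 0.23 (SE 0.032, adjusted p 7.24e-06), and the peripheral stalk subunits Atp5o and Atp5j by 0.29 (SE 0.048, adjusted p 4.93e-05) and 0.14 (SE 0.041, adjusted p 0.00595). Atp5j had -0.0099 under median-of-ratios scaling. The 3 genes for the c-ring, the rotor that turns with proton flow, had a median of 0.30, against 0.16 over the 5 F1 subunits and 0.15 over the 4 membrane subunits.

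Several subunits of complexes IV and V exist in alternative forms whose use differs between tissues, and in complex IV the main kidney forms lay well above the others. Cox4i1 had a median of 859 TPM in WT and 1017 TPM in KO against 1.26 and 1.11 TPM for Cox4i2, a form known from lung. Cox6a1 had 782 and 875 TPM against 1.94 and 1.36 TPM for the heart and muscle form Cox6a2. Cox7a2 had 305 and 324 TPM against 39.2 and 46.3 TPM for the muscle form Cox7a1, the least unequal of these cases. Ndufa4 had 991 and 1036 TPM against 4.23 and 3.93 TPM for Ndufa4l2, which is known to be induced by hypoxia. The testis forms Cox8c and Cox7b2 were at or near 0, with Cox8c listed at 0 in every library and Cox7b2 at no more than 0.101 TPM, whereas Cox8a had 835 and 952 TPM and Cox7b 1404 and 1711 TPM.

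The major forms Cox4i1 (0.25, SE 0.046, adjusted p 0.000158), Cox6a1 (0.20, SE 0.044, adjusted p 0.000741), Cox6b1 (0.20, SE 0.041, adjusted p 0.000394), Cox7a2 (0.13, SE 0.047, adjusted p 0.0178), Cox7b (0.26, SE 0.071, adjusted p 0.00375) and Cox8a (0.18, SE 0.036, adjusted p 0.000211) were higher in KO on TPM as deposited, and none passed under median-of-ratios scaling, where Cox7a2 had -0.02. Ndufa4 did not pass (0.04, SE 0.049, adjusted p 0.541). The one minor form that passed on TPM as deposited was Cox6b2, known as a testis form, at 7.0, 9.37 and 12.2 TPM in WT and 10.9, 12.3 and 26.0 TPM in KO (0.50, SE 0.10, adjusted p 0.000448; 0.35 under median-of-ratios scaling, adjusted p 0.00656). The highest Cox6b2 value was that of KO ZT16 A, and the other KO libraries lay at 10.9 to 16.1 TPM. Cox4i2 (-0.14, adjusted p 0.295), Cox6a2 (-0.23, adjusted p 0.447), Cox7a1 (0.17, adjusted p 0.145) and Ndufa4l2 (-0.12, adjusted p 0.141) did not pass, although Cox4i2 (-0.28, adjusted p 0.0462) and Ndufa4l2 (-0.27, adjusted p 0.00277) were lower in KO under median-of-ratios scaling.

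The 3 c-ring genes encode the same mature protein behind different import signals, so reads may be divided uncertainly among them. Atp5g3 was the main one, at medians of 898 TPM in WT and 1079 TPM in KO (0.25, SE 0.042, adjusted p 4.62e-05). Atp5g1 had 263 and 335 TPM (0.30, SE 0.058, adjusted p 0.000218), and Atp5g2 had 35.6 and 43.9 TPM (0.34, SE 0.064, adjusted p 0.000184). Atp5g1 (0.15, adjusted p 0.0314) and Atp5g2 (0.18, adjusted p 0.0257) were higher under median-of-ratios scaling too, and Atp5g3 did not pass there (0.10, adjusted p 0.0613).

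**Figure D4:**
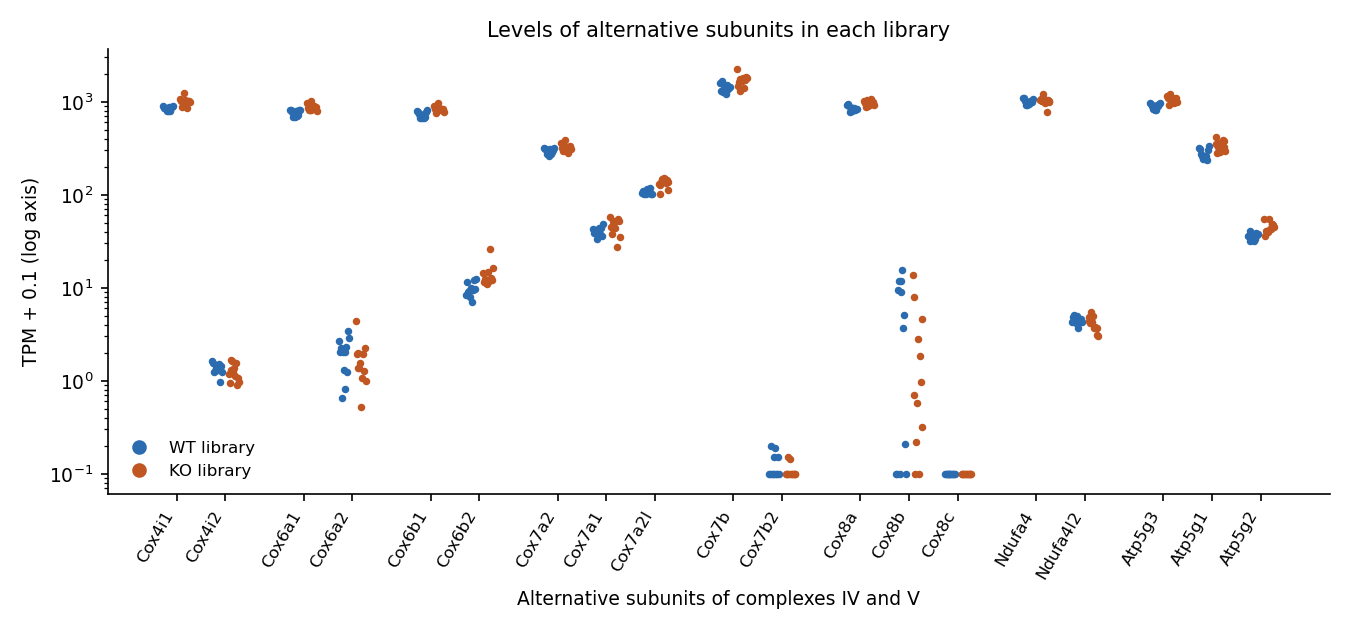
TPM + 0.1 (log axis) of alternative subunit genes of complexes IV and V in each of the 24 libraries, WT in blue and KO in orange, with the main kidney form at the left of each set. The main forms of complex IV lie well above the minor ones in both genotypes, apart from Cox7a2 beside Cox7a2l. These lie at 263 to 389 TPM and 102 to 153 TPM. The c-ring genes lie in the order Atp5g3, Atp5g1 and Atp5g2 from highest to lowest, Cox8c is at 0 throughout, and Cox8b spreads from 0 to 15.3 TPM.

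Cox8b, a heart, muscle and brown fat form, was uneven between libraries. It lay at 0, 4.30 and 15.3 TPM (lowest, median and highest) in WT and 0, 0.735 and 13.5 TPM in KO, and the genotype difference was -0.56 with an SE of 1.2 (adjusted p 0.706). It moved with the brown fat marker Ucp1, and less closely with the sum of the adipocyte markers. Ucp1, the uncoupling protein that defines brown fat, was at 14.7 TPM in WT ZT12 B, where Cox8b was highest (15.3 TPM), and at 8.64 TPM in KO ZT0 A, where Cox8b was at 13.5 TPM. In the 6 libraries where Cox8b was listed at 0, Ucp1 lay between 0.0113 and 0.268 TPM. The 6 adipocyte markers summed to 0.388, 18.9 and 33.7 TPM in WT and 0.146, 7.27 and 36.5 TPM in KO, none of them passed the genotype test, and the 6 striated muscle markers summed to no more than 2.44 TPM in any library. The adipocyte sum was 36.2 TPM in KO ZT12 A and 33.7 TPM in WT ZT16 B, where Cox8b was at 2.69 and 4.98 TPM. It was 35.6 TPM in KO ZT0 A, where Cox8b was at 13.5 TPM. The part of fat RNA in the Cox8b values was not tested.

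The time series asked which members cycled over 24 h, by limma's moderated F test of a cosine curve in either genotype, fitted to all libraries together. In WT 7 members passed, all nuclear, against 13.7% of all genes. They were the assembly factors Ndufaf4, Ndufaf5 and Cox20, the complex III subunit Uqcrb and the complex V subunits Atp5g1, Atp5j2 and Atp5k. None of the 13 mitochondria-encoded genes passed. In a fit of the 12 WT libraries alone, 42 nuclear members and 1 mitochondria-encoded gene (mt-Cytb, adjusted p 0.0206) passed, against 22.1% of all genes; with each library scaled to its nuclear genes these were 20 nuclear and 4 mitochondria-encoded, against 21.6% of all genes. The count in the joint fit was 20 without KO ZT4 A, 23 without KO ZT8 A and 36 without both, against 16.6%, 15.2% and 19.0% of all genes, and with time as 6 unordered levels no member passed. The nuclear members thus went from 6.73% called, below the share of all genes, to 33.7% without both libraries, above it.

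The rhythms were small, and the fitted peaks lay close together in time. Ndufaf5, a complex I assembly factor, was highest in WT at ZT0 (12.0 and 11.2 TPM) and lowest at ZT12 (8.32 and 7.17 TPM), with a fitted peak-to-trough difference of 0.50 (SE 0.11, adjusted p 0.0155) and a peak at 21.7 h. Cox20, a chaperone of the complex IV subunit encoded by mt-Co2, had 133 and 132 TPM at ZT0 and 104 and 114 TPM at ZT12 (0.29, SE 0.058, adjusted p 0.00534, peak at 22.2 h). Uqcrb had 401 and 392 TPM at ZT0 and 331 and 308 TPM at ZT12 (0.33, SE 0.074, adjusted p 0.0147, peak at 22.5 h). The libraries of these times did not overlap in any of the 3 genes. This adds no support for a rhythm, since the genes were picked by the test and the times lie near the fitted peak and trough. Atp5j2, a membrane subunit of ATP synthase, had 0.33 (SE 0.084, adjusted p 0.0301, peak at 22.2 h), and Ndufaf4 had 0.49 (SE 0.12, adjusted p 0.0303, peak at 19.3 h). With single libraries left out in turn, Atp5j2 passed in 18 of 24 fits and Ndufaf4 in 21.

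Promoters of the cycling members named above are shown because their fitted peaks lay between 19.3 and 22.8 h; Uqcrb had no entry in the table used. Each is 300 bases, from 250 before to 50 after the annotated start (RefSeq, GRCm38.p6), read in the direction of the gene. Capitals mark matches on either strand to CACGTG (the E-box bound by Bmal and its partner), GCATGCGC (NRF1), CCGGAAGT (ETS factors), AAGGTCA (ERR receptors), AAGATGGC (YY1) or TTATGTAA (a D-box). Matches may overlap, as in the runs in Ndufaf5 and Atp5k, where both strands match.
Ndufaf4 promoter (chr4:24897833-24898132, plus strand): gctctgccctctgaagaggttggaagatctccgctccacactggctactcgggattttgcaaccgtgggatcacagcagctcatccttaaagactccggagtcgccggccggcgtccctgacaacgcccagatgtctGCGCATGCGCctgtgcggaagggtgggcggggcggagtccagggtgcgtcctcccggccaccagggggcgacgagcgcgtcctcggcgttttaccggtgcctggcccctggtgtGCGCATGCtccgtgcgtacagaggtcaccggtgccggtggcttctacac
Ndufaf5 promoter (chr2:140170396-140170695, plus strand): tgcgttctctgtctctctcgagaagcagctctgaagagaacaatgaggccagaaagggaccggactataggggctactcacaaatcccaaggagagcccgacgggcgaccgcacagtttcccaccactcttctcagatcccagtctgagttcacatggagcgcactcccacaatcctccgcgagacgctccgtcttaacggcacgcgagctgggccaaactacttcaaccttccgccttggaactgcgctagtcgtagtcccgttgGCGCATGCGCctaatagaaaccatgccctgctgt
Cox20 promoter (chr1:178318903-178319202, plus strand): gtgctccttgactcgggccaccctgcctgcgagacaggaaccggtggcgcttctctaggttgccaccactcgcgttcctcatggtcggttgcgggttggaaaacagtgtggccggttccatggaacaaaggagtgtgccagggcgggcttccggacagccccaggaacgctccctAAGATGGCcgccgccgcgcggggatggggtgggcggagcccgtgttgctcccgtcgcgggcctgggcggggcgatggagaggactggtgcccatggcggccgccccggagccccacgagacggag
Atp5j2 promoter (chr5:145191492-145191791, minus strand): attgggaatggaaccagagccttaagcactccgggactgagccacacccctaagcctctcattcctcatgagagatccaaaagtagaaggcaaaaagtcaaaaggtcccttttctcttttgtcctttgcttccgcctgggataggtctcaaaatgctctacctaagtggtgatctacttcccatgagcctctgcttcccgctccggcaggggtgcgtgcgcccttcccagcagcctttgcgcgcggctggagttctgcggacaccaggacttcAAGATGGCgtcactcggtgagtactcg
Atp5k promoter (chr5:108434350-108434649, minus strand): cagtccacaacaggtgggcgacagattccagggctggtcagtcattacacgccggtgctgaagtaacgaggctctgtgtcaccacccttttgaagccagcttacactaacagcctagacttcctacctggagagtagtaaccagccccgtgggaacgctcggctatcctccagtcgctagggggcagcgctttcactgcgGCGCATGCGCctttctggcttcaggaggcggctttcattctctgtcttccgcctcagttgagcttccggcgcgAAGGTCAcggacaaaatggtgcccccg
Atp5g1 promoter (chr11:96075582-96075881, minus strand): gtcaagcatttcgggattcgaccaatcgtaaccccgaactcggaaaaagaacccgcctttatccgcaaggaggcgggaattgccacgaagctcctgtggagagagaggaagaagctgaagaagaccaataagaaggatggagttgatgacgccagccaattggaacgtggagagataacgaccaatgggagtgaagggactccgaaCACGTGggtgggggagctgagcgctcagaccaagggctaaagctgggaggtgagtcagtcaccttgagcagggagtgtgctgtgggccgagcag
Ndufaf4, Ndufaf5 and Atp5k held the NRF1 letters, Atp5k also those of ERR, Cox20 and Atp5j2 those of YY1, and Atp5g1 the E-box. Promoters were found for 85 of the 106 nuclear member symbols. Of these 85, 12 held the NRF1 letters (14.1%, against 5.89% of the 9594 tested genes with a promoter) and 12 those of YY1 (14.1% against 5.37%). The ERR letters were in 8 (9.41% against 4.07%), the ETS letters in 9 (10.6% against 9.16%), the E-box in 5 (5.88% against 11.8%) and the D-box in 1 (1.18% against 0.698%). A match is a run of letters and not evidence of binding, and its absence says only that these letters are not in this window.

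Most nuclear members peaked at the same time in WT whether or not they passed the test. The fitted WT peak fell between 20 and 24 h for 85 of the 104 nuclear members (81.7%), against 30.7% of all genes, and between 8 and 12 h for 9 of the 13 mitochondria-encoded genes (69.2%, against 16.3% of all genes). The median peak-to-trough difference was 0.21 for nuclear members, 0.13 for mitochondria-encoded genes and 0.25 for all genes. The late peak depended in part on the scale, since the 20 to 24 h bin held 62 nuclear members with nuclear scaling (59.6%, against 22.0% of all genes) and 46 with median-of-ratios scaling (44.2% against 25.1%), where another 43 peaked between 16 and 20 h (41.3% against 17.2%). Of the mitochondria-encoded genes 11 peaked between 8 and 12 h with nuclear scaling (84.6% against 23.3%) and 7 with median-of-ratios scaling (53.8% against 21.5%). These peak times are descriptions, and members share the same 12 libraries.

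**Figure D5:**
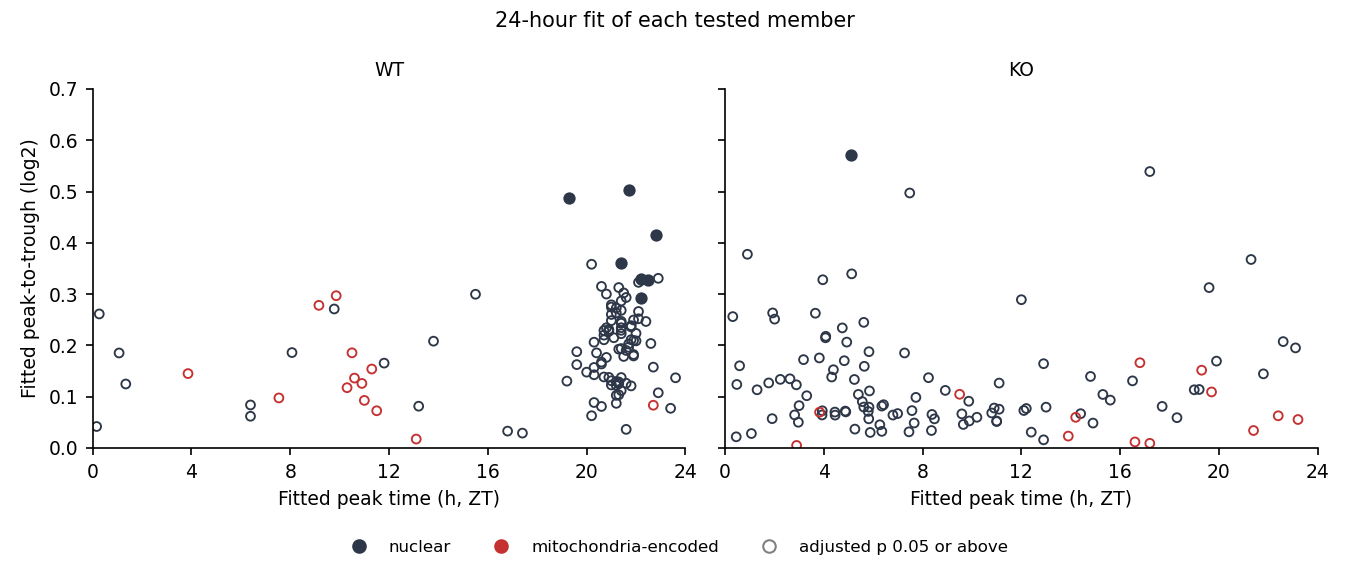
Fitted peak time (h) against fitted peak-to-trough difference (log2) of the tested members in WT (left) and KO (right); filled points passed an adjusted p of 0.05, nuclear members are dark and mitochondria-encoded ones red. In WT 85 of 104 nuclear members lie between 20 and 24 h, and in KO 38 lie between 4 and 8 h and 25 between 0 and 4 h, which become 58 and 27 without KO ZT4 A; Cox8b and Cox6a2 lie above the axis and are not drawn.

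In KO 1 member passed, Ndufa4l2, against 3.64% of all genes. No member did in a fit of the KO libraries alone, where 0.0932% of all genes passed. In that fit 4 of the 104 nuclear members had an unadjusted p under 0.05, against 1694 of the 12874 genes tested. Ndufa4l2 lay at 4.13 and 5.38 TPM at ZT4 in KO and at 3.04 and 2.97 TPM at ZT20, a fitted difference of 0.57 (SE 0.12, adjusted p 0.025) with its peak at 5.1 h. In WT it had 0.12 (SE 0.12, adjusted p 0.74). The difference between the 2 rhythms of Ndufa4l2 did not pass (adjusted p 0.287), and the KO rhythm passed in 21 of 24 fits with single libraries left out (not without KO ZT4 B, KO ZT8 B or KO ZT20 A, with adjusted p up to 0.0751). The median KO peak-to-trough difference of the nuclear members was 0.10, and 0.15 without KO ZT4 A. The 20 to 24 h bin held 5 of them (4.81%, against 14.4% of all genes) and the 4 to 8 h bin 38 (36.5% against 17.3%). Without KO ZT4 A these were 7 (6.73% against 14.6%) and 58 (55.8% against 23.9%), without KO ZT8 A 30 (28.8% against 14.1%) and 10 (9.62% against 18.6%), and without both 21 (20.2% against 12.6%) and 21 (20.2% against 27.6%). The KO peak times thus rested on those libraries.

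The rhythm differed between the genotypes for no member in the limma F test, against 0.629% of all genes; 17 nuclear members had an unadjusted p under 0.05, against 13.7% of all genes. That count was 47 without KO ZT4 A (against 14.5% of all genes), 7 without KO ZT8 A (13.9%) and 24 without both (14.8%). The smallest adjusted p among the members named for a WT rhythm was 0.223, for Uqcrb, whose KO libraries lay between 366 and 454 TPM with a fitted difference of 0.03 (SE 0.074). Leaving out single libraries gave 0 or 1 member. A rhythm called in WT and not in KO is thus not shown to differ.

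Genes that serve the same complexes were read beside the members, by lists set with earlier results known. Over all genes the shares were 50.9% higher and 10.0% lower on TPM as deposited (median 0.15), and 21.5% and 22.6% under median-of-ratios scaling. Of 78 mitochondrial ribosome genes, 56 were higher in KO and 1 lower on TPM as deposited (median 0.14), and 12 and 10 under median-of-ratios scaling (15.4% and 12.8%). The 71.8% higher exceeded the share of all genes, while the median was slightly below theirs. Mrps35 had the smallest p-value (0.59, SE 0.064, adjusted p 7.78e-07), followed by Mrpl9 with 28.5 ± 1.08 TPM in WT and 36.6 ± 3.32 TPM in KO (SD, n = 12; 0.35, SE 0.040, adjusted p 1.16e-06). Of 35 genes of mitochondrial gene expression, 25 were higher and 1 lower (4 and 4 under median-of-ratios scaling), or 71.4% and 2.86% (11.4% each). The lower one was Gfm1, an elongation factor of mitochondrial translation, with 62.4 ± 3.44 TPM in WT and 51.6 ± 5.02 TPM in KO (SD, n = 12; -0.28, SE 0.035, adjusted p 2.74e-06), and Mtpap, the mitochondrial poly(A) polymerase, was higher by 0.23 (SE 0.038, adjusted p 4.68e-05).

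Of 32 tested assembly and chaperone factors with other name stems, 20 were higher and 2 lower (3 and 5 under median-of-ratios scaling), or 62.5% and 6.25% (9.38% and 15.6%). The insertase Oxa1l was higher by 0.34 (SE 0.038, adjusted p 7.98e-07) and the complex IV factor Surf1 by 0.27 (SE 0.035, adjusted p 3.78e-06). Among 26 genes of the citric acid cycle and electron carriers, 19 were higher and 2 lower (6 and 6), or 73.1% and 7.69% (23.1% each), with Slc25a3, the phosphate carrier, at 0.26 (SE 0.033, adjusted p 2.92e-06) and Suclg2, a subunit of succinyl-CoA ligase, at 0.25 (SE 0.032, adjusted p 3.44e-06). Among 22 regulators of mitochondrial biogenesis, 10 were higher and 3 lower (3 and 5), or 45.5% and 13.6% (13.6% and 22.7%). Over all genes 50.9% were higher as deposited and 21.5% under median-of-ratios scaling. In a list of 22 the distance from these shares rests on few genes. The smallest p-values of that list belonged to nuclear receptors: Ppard, with 15.8 ± 12.9 TPM in WT and 44.6 ± 15.9 TPM in KO (SD, n = 12; 1.84, SE 0.25, adjusted p 8.94e-06), and Esrrb, with 6.68 ± 1.16 TPM in WT and 11.3 ± 2.79 TPM in KO (SD, n = 12; 0.72, SE 0.086, adjusted p 1.57e-06).

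Of the 120 members 3 were not tested. They were Cox8c and Cox7b2, described above, and a gene that shares the symbol Atp5o (ENSMUSG00000116933), which lay between 0 and 1.76 TPM.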

How the data were processed

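Kidney RNA abundance was measured in 24 libraries, grouped by genotype and time from the labels. The authors deposited transcript TPM, made with kallisto 0.42.4 per the submitters' processing notes, which also name the GRCm38 build; the index and the use of strand are not given in the sources used here. Of 88198 transcripts, 86119 matched GENCODE M21 by Ensembl transcript ID without version and were summed per gene; the rest held 1.35% to 2.24% of TPM per library. TPM keeps no depth, so no counting error could be given.

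limma 3.58.1 in R 4.3.3 (lmFit, then eBayes with trend and robust) was run on log2(TPM + 0.1) for genes averaging 1 TPM or more, and a fold change on this scale understates low genes. p-values were adjusted by Benjamini-Hochberg over all 12874 genes. The genotype fit had time as a 6-level factor; the rhythm fit had a mean, cosine and sine of 24 h per genotype. The model fits were tested on simulated data. Alternatives covered the pseudocount, the filter, the scaling, the replicate letter as a block, eBayes options, the time term and leaving out libraries; fits without several libraries, or combining these with another scaling, and ranges without KO ZT4 A were added after seeing the data. The members and lists were chosen with earlier results of these data known. Named genes are all mitochondria-encoded members, the 3 most abundant nuclear subunits per complex, up to 3 per complex with the smallest genotype p and 1 sign at all times, up to 5 per rhythm test, all alternative forms, and the 2 smallest p per list; Atp5k and Ddx3y, and the ratios within a library, were picked with their values in view. The chromatin contact files were not used here.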

Additional observations from a re-analysis of the deposited data

How the results depend on the processing

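TPM gives no depth, so the precision rests on the spread between libraries, pooled over the groups of 2. The number of members that differed by genotype was 89, and 38 under median-of-ratios scaling, 41 with that scaling and without KO ZT4 A, 43 with it and without KO ZT4 A and KO ZT8 A, and 82 to 95 with single libraries left out. The median of the mitochondria-encoded members (-0.16) was -0.31, -0.34 and -0.29 in those scaled fits, -0.22 scaled to nuclear genes, -0.24 so scaled and without KO ZT4 A, and -0.17 to -0.11 with single libraries left out. The median of the nuclear members (0.19) was 0.035, 0.033 and -0.0005 in the scaled fits, the last on the other side of 0, and 0.16 to 0.20 with single libraries left out. Under median-of-ratios scaling 8 named genes had the opposite sign: Atp5j (-0.0099), Atp5j2 (-0.0244), Cox7a2 (-0.0176), Ndufa10 (-0.048), Sdhc (-0.0501), Uqcr10 (-0.0043), Uqcrh (-0.0004) and mt-Co1 (-0.0893). The mitochondria-encoded share stayed within 40.3% to 40.7% in WT and 37.4% to 38.1% in KO with single libraries left out.

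The 7 members cycling in WT became 4 with no filter, 0 with time as 6 levels, 43 with each genotype fitted alone (24 also scaled to nuclear genes, 26 with median-of-ratios scaling), 36 without KO ZT4 A and KO ZT8 A (21 with median-of-ratios scaling), 37 without KO ZT12 A as well, and 4 to 23 with single libraries left out. The count was 4 without each of WT ZT0 A, WT ZT0 B, WT ZT12 B, WT ZT16 A and WT ZT20 B, 20 without KO ZT4 A and 23 without KO ZT8 A. Among all genes 13.7% cycled in WT, and 22.1% with each genotype alone (21.6% scaled to nuclear genes, 21.8% with median-of-ratios scaling). The share was 19.0% without KO ZT4 A and KO ZT8 A, and 22.1% without KO ZT12 A as well. It was 16.6% without KO ZT4 A alone and 15.2% without KO ZT8 A alone. The 1 member cycling in KO became 0 at a minimum of 5 TPM, 0 with 6 levels, and 0 with each genotype alone on any of the 3 scales. It became 2 without KO ZT4 A and KO ZT8 A, 2 without KO ZT12 A as well, 2 scaled to nuclear genes without KO ZT4 A, and 0 to 3 with single libraries left out. Among all genes 3.64% cycled in KO, 0.0932% to 0.163% with each genotype alone, and 2.21% without KO ZT4 A and KO ZT8 A. Shares of all genes in the remaining fits are not given here. No member differed in rhythm except 1 without WT ZT8 A. In the joint fit each genotype has its own curve, and both share 1 spread per gene. Leaving out KO libraries therefore leaves the WT curves as they are and changes only that spread and the adjustment over genes. The median WT peak-to-trough difference of nuclear members was 0.205 with all libraries and without KO ZT4 A and KO ZT8 A. What else lay behind the shifts in these counts was not tested.

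With the letter as a replicate block the genotype count was 89, the rhythm counts 10 in WT and 1 in KO, and no member differed in rhythm. Differences between A and B correlated between the genotypes at -0.0892 to 0.15 over the 6 times. These weak correlations show no pairing by letter but cannot exclude one, and the labels do not say what the letters mean.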
